A study of Mus musculus with 2 samples.

Results

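The transcripts of 10 mouse genes of the TNF receptor superfamily were followed in intestinal organoids grown with or without RankL. The genes were chosen by symbol from the superfamily (Tnfrsf1a, Fas, Tnfrsf10b, Tnfrsf21, Tnfrsf1b, Ltbr, Cd40, Tnfrsf4, Tnfrsf9 and Tnfrsf12a), after ratios of these same arrays had been seen, so their ratios are given as a description. Their RefSeq accessions matched 16 probes, and 7 of the 10 genes were measured, out of 12877 genes or accessions measured on the arrays. All 7 were well above background in both RNAs on both arrays.

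Most TNF receptors are cell-surface proteins that bind trimeric ligands through cysteine-rich repeats. Some carry a cytoplasmic death domain and recruit adaptors such as TRADD and FADD, which lead to NF-kB or to caspases. Many of the others bind TRAF proteins, through which they activate canonical or noncanonical NF-kB, and some are decoys. RANK, the receptor of RankL, belongs to the same family and uses TRAFs.

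Small-intestinal organoids of wild-type mice were cultured in crypt medium with EGF, Noggin and R-spondin, without treatment or with recombinant mouse RankL. The series' design gives 50 to 200 ng/ml RankL and medium changes on day 2 and day 5, while the dose and the harvest time of these RNAs, and the strain, age and number of the mice, are stated by none of the sources used here. The question was which transcripts respond to RankL. One pair of RNAs was hybridised to 2 dual-colour arrays on 1 slide, array 2 being the dye swap of array 1; RankL RNA carried Cy3 on the first and Cy5 on the second. This is 1 replicate per condition, so no test was possible, and each ± below is the SD of the 2 arrays, which leaves out the spread between cultures. In RNA of whole organoids, fewer cells of a type and less RNA per cell cannot be told apart.

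Between 38.3% and 43.4% of the non-control spots were well above background, over both RNAs and both arrays. A size rule replaced the test: a gene was called higher or lower where the log2 ratio of RankL over untreated averaged at least 1 in size (2-fold) with the arrays agreeing in sign, each by 0.5 or more. By this rule 5.47% of the 12877 genes were higher and 2.5% lower. All 8 epithelial markers were measured, with ratios from -0.92 ± 0.29 (Krt18) to 0.81 ± 0.075 (Vil1), and their summed signal was 151724 and 147839 in RankL RNA and 180304 and 151762 in untreated RNA. Of 11 leukocyte markers with a probe, 7 were above background in neither RNA on either array, among them Ptprc, the pan-leukocyte antigen CD45, and Cd4 was above it on 1 array. The summed signal of the 10 leukocyte markers with values on both arrays was 1180 and 1148 with RankL and 886 and 869 without. The lipopolysaccharide co-receptor gene Cd14 was the one of them that was measured, with log2 signals of 9.07 and 8.88 against 7.71 and 7.82 and a ratio of 1.21 ± 0.22. Without Cd14 the sum over the other 9 markers was 641 and 679 with RankL and 677 and 642 without, and the RNAs overlapped. None of these 9 was measured, so their sum is mostly background and cannot show whether leukocyte RNA differed. The T cell gene Cd3e was called above background, but its spot on array 1 was an outlier and was left out; on array 2 its log2 ratio was -0.12. Of 9 stromal and endothelial markers, 6 were above background on no array, and Col1a2 and Vim were at 0.17 and -0.067. Pdgfrb was above background with RankL only and at least 1.87-fold higher as the mean of the arrays (log2 ratios 0.74 and 1.07). The summed signal of the 9 was 912 and 864 with RankL and 813 and 762 without. The part of these markers in the receptor values was not tested.

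Of the 7 measured receptors, Tnfrsf4 and Tnfrsf1b were higher with RankL by the size rule (2 of 7, against 5.47% of all genes). No receptor was lower (0 of 7, against 2.5%). The other 5 lay between 0.040 and 0.43 on the log2 scale. The median of the 7 was 0.34, beside 0.0086 over all measured genes. As the genes were picked with these ratios known, nothing is read from the difference between the shares.

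**Figure D1:**
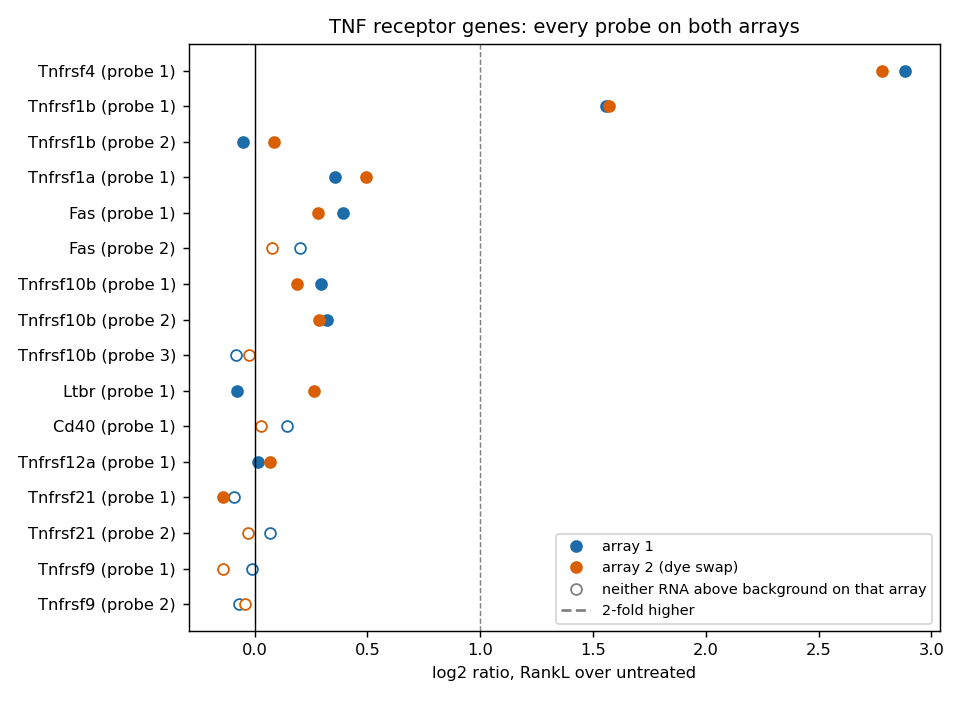
Log2 ratio of RankL over untreated (x axis) for each of the 16 probes of the 10 receptor genes (y axis, probe 1 being the brightest of a gene), with 1 point per array; open points mark arrays on which neither RNA was well above background, and the dashed line marks 2-fold. Tnfrsf4 and the brighter Tnfrsf1b probe lie beyond the dashed line on both arrays, and the other 14 probes lie between -0.14 and 0.49.

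Tnfrsf4 encodes OX40, a co-stimulatory receptor best known on activated T cells, which binds TRAF proteins. Its single probe had a normalized log2 signal of 10.7 (array 1) and 10.6 (array 2) in RankL RNA. In untreated RNA the signals were 7.81 and 7.79, which is 1.60 and 1.63 above the lowest signal called well above background. The RNAs did not overlap, and the transcript was detected without RankL. The log2 ratios were 2.88 and 2.78, with a mean of 2.83 ± 0.072, or 7.13-fold. It ranked 82 from the highest among the 12877 genes. The scanner software's own ratios gave 3.42, or 10.7-fold.

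Tnfrsf1b encodes TNFR2, the TNF receptor without a death domain, which recruits TRAF2 with cIAP proteins. Its brighter probe was printed 10 times on each array. The signals were 8.76 and 8.78 with RankL and 7.20 and 7.21 without, and the ratios of 1.56 and 1.57 gave a mean of 1.57 ± 0.0093, or 2.96-fold. All 19 spots used lay between 1.25 and 1.80. The untreated signals were 0.98 and 1.04 above the background limit, and the scanner software's ratios gave a log2 ratio of 2.14. A second probe with the same RefSeq accession read differently. It was above background in both RNAs on both arrays, with signals of 6.58 and 6.90 with RankL and 6.63 and 6.81 without, and its ratio was 0.018 ± 0.097. These signals were only 0.40 and 0.81 above the background limit with RankL and 0.42 and 0.65 without. The processing compresses ratios of such dim probes. The scanner software's own log2 ratios of this second probe were 0.086 and 0.41, with a mean of 0.25, or 1.19-fold. With the mean of both probes Tnfrsf1b stood at 0.79 and no longer met the size rule. The gap of 1.55 between the probes was reached by 29 of 2900 genes with several measured probes (1%), whose median gap was 0.18. Those genes were not matched for brightness. The sequences of the probes are not used here, so where each one binds the transcript is not stated.

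The promoters of these receptors were read from RefSeq (GRCm38.p6), which held windows from 250 bases before to 50 after the start for 8 of the 10 genes, 9 windows in all. Both strands were searched for the NF-kB consensus, a motif of 10 bases. It matched 8.46% of all 32851 windows. Among the receptors it matched 1 window, that of a second start of Tnfrsf9, and none of the windows of Tnfrsf4 and Tnfrsf1b, which says only that these letters are not there. The 250 bases before the start are shown 5′ to 3′ for the pair of receptors that were higher and for the receptor with a match, whose overlapping matches are in capitals. They begin at positions -43 and -42 relative to the start.
Tnfrsf4, chr4:156013445-156013694, plus strand: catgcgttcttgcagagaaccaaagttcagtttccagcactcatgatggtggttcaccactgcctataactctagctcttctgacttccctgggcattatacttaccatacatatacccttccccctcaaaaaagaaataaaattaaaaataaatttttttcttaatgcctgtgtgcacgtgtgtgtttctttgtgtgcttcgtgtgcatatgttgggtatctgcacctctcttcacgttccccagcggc
Tnfrsf1b, chr4:145246871-145247120, minus strand: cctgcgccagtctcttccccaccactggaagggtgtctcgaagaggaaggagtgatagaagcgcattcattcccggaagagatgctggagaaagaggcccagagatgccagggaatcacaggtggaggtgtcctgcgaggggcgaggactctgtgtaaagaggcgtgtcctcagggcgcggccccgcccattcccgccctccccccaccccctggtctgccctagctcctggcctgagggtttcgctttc
Tnfrsf9, second start, chr4:150927749-150927998, plus strand: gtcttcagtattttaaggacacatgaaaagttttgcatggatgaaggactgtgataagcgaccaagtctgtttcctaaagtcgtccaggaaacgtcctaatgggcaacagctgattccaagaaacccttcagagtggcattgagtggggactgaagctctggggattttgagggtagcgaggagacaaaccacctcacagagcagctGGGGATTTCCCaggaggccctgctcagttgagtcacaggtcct
The windows differ in base composition: G and C made up 42.8% of the Tnfrsf4 sequence, 62.8% of that of Tnfrsf1b and 49.6% of that of Tnfrsf9.

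The receptors with a death domain came next. Tnfrsf1a encodes TNFR1, the main receptor of soluble TNF, which signals through TRADD and RIPK1. Its signals were 9.69 and 9.79 with RankL and 9.34 and 9.30 without, and the RNAs did not overlap. Its ratio was 0.43 ± 0.097 (0.36 and 0.49), or 1.34-fold, short of the size rule. Over its 20 spots the ratio ran from -0.11 to 0.83, and 19 lay above 0.

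Fas encodes the receptor of Fas ligand, which recruits FADD and caspase-8. Its brighter probe gave 7.25 and 7.06 with RankL and 6.86 and 6.78 without. The ratio was 0.34 ± 0.077 (0.39 and 0.28), or 1.26-fold, and all 19 spots used lay above 0, between 0.039 and 0.59. Both RNAs of this probe were within 1.1 of the background limit. A second probe, matched to another Fas accession, was not above background in either RNA.

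Tnfrsf10b encodes the mouse receptor of TRAIL, an apoptosis-inducing ligand. Its brightest probe gave 7.002 and 6.940 with RankL and 6.71 and 6.75 without, a ratio of 0.24 ± 0.075 or 1.18-fold. The next probe was above background with RankL only, on both arrays, and was at least 1.23-fold higher there as the mean of the arrays (log2 ratios 0.32 and 0.29). The dimmest was not above background in either RNA. The scanner software's ratio of the middle probe was 1.20, or 2.30-fold.

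Tnfrsf21 encodes death receptor DR6. It was not measured: its brighter probe was above background in both RNAs on array 2 (6.60 with RankL, 6.74 without) and in neither on array 1 (6.38 and 6.48). A second probe was above background on neither array. No direction can be given for this gene.

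**Figure D2:**
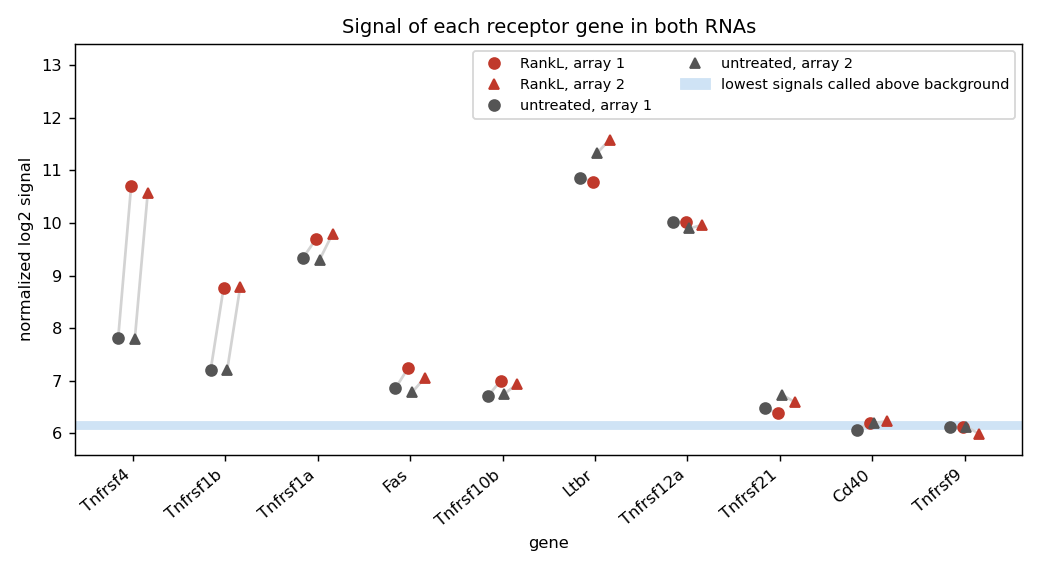
Normalized log2 signal (y axis) of 1 probe per receptor gene (x axis) in RankL RNA (red) and untreated RNA (grey), with circles for array 1 and triangles for array 2; the band spans the lowest signals called well above background, 6.09 to 6.21. Grey lines join the RNAs of an array, which lie far apart for Tnfrsf4 and Tnfrsf1b and close together for the rest; heights of different genes cannot be compared, as they come from different probes.

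Of the other TRAF-binding receptors, Ltbr and Tnfrsf12a were well above background in both RNAs and close to a ratio of 0. Ltbr encodes the lymphotoxin beta receptor, an activator of noncanonical NF-kB that is needed for lymphoid organs such as Peyer's patches. Its signals were 10.8 and 11.6 with RankL and 10.9 and 11.3 without, so the spread between arrays was larger than that between RNAs. The ratio was -0.077 on array 1 and 0.26 on array 2, with a mean of 0.093 ± 0.24, and has no settled direction. Tnfrsf12a encodes Fn14, the receptor of the cytokine TWEAK. It stood at 10.02 and 9.96 with RankL and 10.01 and 9.89 without, and its ratio was 0.040 ± 0.037, or -0.074 with median centring in place of loess.

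Cd40 and Tnfrsf9 were not measured. Cd40 encodes the receptor of CD40 ligand on B cells and other antigen-presenting cells. Its probe was printed 10 times, and 0 of the 10 spots was well above background in either RNA on either array. The signals were 6.21 and 6.23 with RankL and 6.06 and 6.20 without. Tnfrsf9 encodes CD137, a co-stimulatory receptor of activated T cells. Both of its probes were below the background limit, at 5.98 to 6.13 over both RNAs and arrays. Neither gene was called above background with or without RankL. A difference between signals too dim for that call was not detectable.

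**Figure D3:**
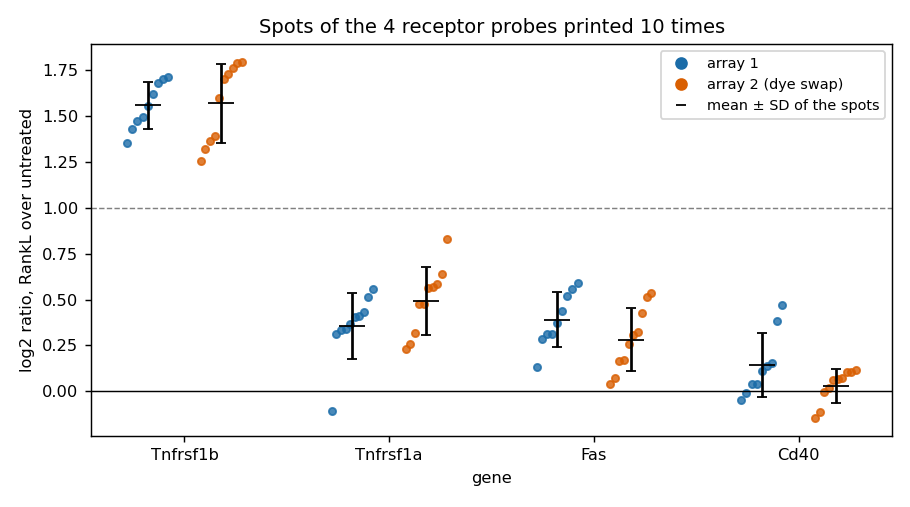
Log2 ratio of RankL over untreated (y axis) in the single spots of the 4 receptor probes printed 10 times (x axis), by array, with spots ordered by value and black marks for their mean ± SD. Tnfrsf1b spots lie between 1.25 and 1.80, above every spot of Tnfrsf1a, Fas and Cd40, whose highest is 0.83.

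Of 10 genes for ligands of these receptors, 3 were measured, against 39.9% of the 32235 genes or accessions on the arrays. Of these 3, 1 was higher, against 5.47% of all measured genes. That was Ltb, at 2.28 ± 0.012 or 4.87-fold (2.28 and 2.29). It encodes lymphotoxin beta, which forms a ligand of Ltbr together with the product of Lta. Tnf, the ligand of TNFR1 and TNFR2, was above background with RankL only and at least 1.43-fold higher as the mean of the arrays (log2 ratios 0.53 and 0.51). Tnfsf10, which encodes TRAIL, was at 0.12 ± 0.14. The ligands of OX40, CD137, CD40, Fas and Fn14 (Tnfsf4, Tnfsf9, Cd40lg, Fasl and Tnfsf12), and Lta and Tnfsf14, were not measured. Tnfrsf4 thus had a signal in both RNAs while the probe of its ligand was above background in neither RNA on either array.

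Adaptors of the TRAF branch followed; this and the other lists were drawn up with results of these arrays known, and differences between lists were not tested. Of 9 genes for TRAFs, cIAPs and the kinase NIK, 7 were measured, 4 were higher (against 5.47% of all measured genes) and 3 neither, with a median of 1.13. Traf1, an adaptor recruited by TNFR2 and OX40, was not above background in untreated RNA. It was at least 3.44-fold higher as the mean of the arrays (log2 ratios 1.71 and 1.94). Birc3, the ubiquitin ligase cIAP2, was at 1.55 ± 0.038, its relative Birc2 at 0.92 ± 0.35, and Traf4 at 0.22 ± 0.097. Traf2 (1.13 ± 0.16) and Map3k14, which encodes NIK (2.38 ± 0.26), were the other genes that met the rule, and Traf3 was at 0.82 ± 0.0017. Traf5 and Traf6 were not measured.

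Of 11 genes of death-domain signalling, 10 were measured and 0 met the size rule in either direction, with a median of 0.058. Over all measured genes 5.47% were higher and 2.5% lower, so 0 of 10 lies close to these shares. The caspase-8 inhibitor Cflar was at 0.83 ± 0.20, with other probes from 0.0041 to 0.30, and the necroptosis kinase Ripk3 at 0.67 ± 0.18. Bid, the substrate that links caspase-8 to mitochondria, was at -0.57 ± 0.078. The adaptors Tradd and Fadd were at -0.13 ± 0.12 and -0.055 ± 0.27, and Casp8 at 0.091 ± 0.13.

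All 7 genes for the linear ubiquitin ligase LUBAC, for deubiquitinases of the receptor complexes and for the inhibitor Tnip1 were measured. Of these, 2 were higher (against 5.47% of all measured genes) and 5 neither, with a median of 0.26. Those higher were the inhibitors Tnfaip3, which encodes A20 (2.72 ± 0.12), and Tnip1 (2.40 ± 0.0031). The LUBAC subunits Rnf31, Rbck1 and Sharpin were at -0.12 ± 0.34, -0.13 ± 0.088 and 0.34 ± 0.0049. Of the 4 measured genes that act in receptor shedding, 1 was higher, against the same 5.47%. Timp3, an inhibitor of the sheddase ADAM17, was at 1.18 ± 0.028, Adam17 itself at 0.050 ± 0.19 and its partner Rhbdf2 at 0.48 ± 0.13.

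Other receptors of the superfamily gave 4 higher, 1 lower and 2 neither among 7 measured of 18 genes, with a median of 1.04. Over all measured genes 5.47% were higher and 2.5% lower. Besides Tnfrsf11b, the decoy receptor of RankL, (3.10 ± 0.34, above background in untreated RNA on 1 array) and Tnfrsf19 (3.12 ± 0.011), the genes that were higher were Ngfr and Relt. Ngfr, the neurotrophin receptor p75, was at 2.75 ± 0.053 by its brighter probe and 0.079 by a second measured probe, and at 1.42 by their mean. Relt, an orphan receptor, was above background with RankL only and at least 2.05-fold higher as the mean of the arrays (log2 ratios 0.95 and 1.12). Tnfrsf18, which encodes the co-stimulatory receptor GITR, was lower at -1.13 ± 0.15 (-1.02 and -1.24), with signals above background in both RNAs. Its mean signal was 6.84 with RankL, near the background limit, and 7.97 without. Over the settings its ratio ran from -1.88 to -1.02. Tnfrsf11a, the gene of RANK, was at 0.93 ± 0.17 and Tnfrsf25 at 0.35 ± 0.56. Where only probes above background in both RNAs were kept, 5 of these receptors were measured and 2 were higher (Tnfrsf19 and Ngfr), and with the scanner software's ratios 5 were higher. Over the settings Tnfrsf11b ran from 2.86 to 5.11 and Tnfrsf19 from 3.03 to 4.26, and Relt fell short of the rule on array 1 alone, at 0.95.

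**Figure D4:**
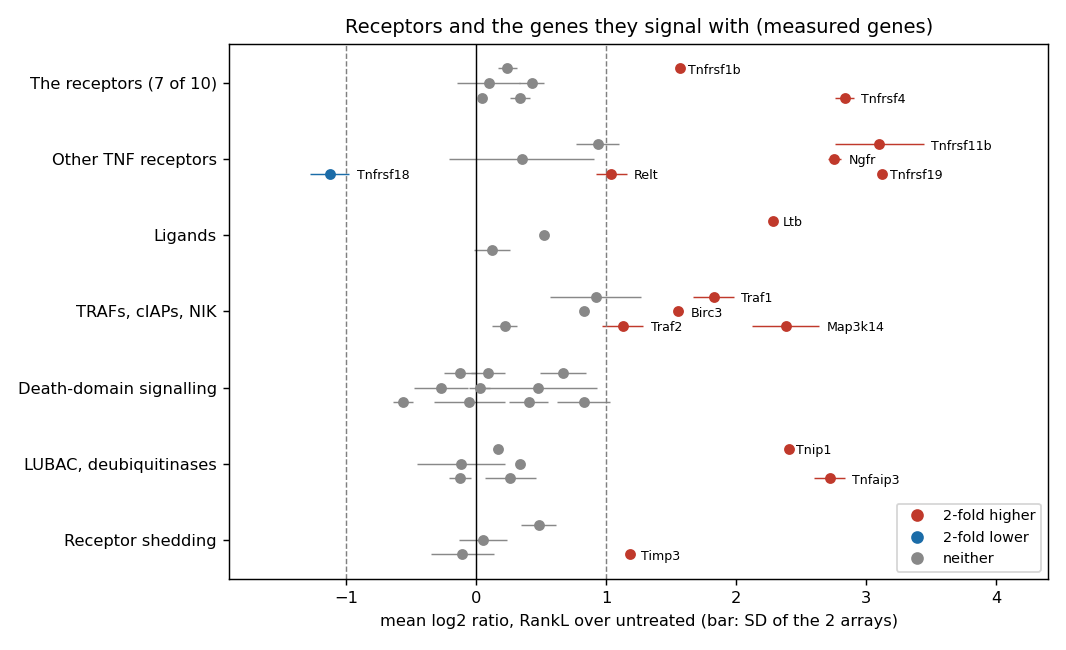
Mean log2 ratio of RankL over untreated (x axis, bars give the SD of the 2 arrays) of each measured gene, by list (y axis; vertical offsets within a list only separate points); red genes met the size rule upwards, blue downwards and grey neither. Of the TRAF list 4 genes lie past the upper dashed line and of the death-domain list 0 lie past either. Over all measured genes 5.47% were higher and 2.5% lower by the size rule, and the lists were not compared by a test.

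**Figure D5:**
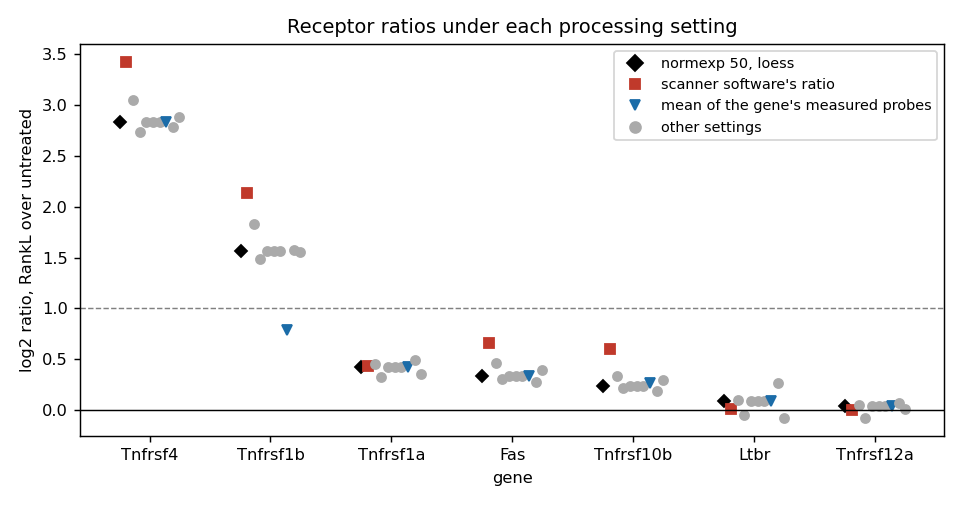
Log2 ratio of RankL over untreated (y axis) of the 7 measured receptors (x axis) under the main setting (diamonds), the scanner software's ratio (squares), the mean of a gene's measured probes (triangles) and 7 other alternatives (circles); the dashed line marks 2-fold. Tnfrsf4 lies between 2.74 and 3.42 throughout, while Tnfrsf1b runs from 0.79, the mean of its probes, to 2.14.

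Across these settings Tnfrsf4 met the size rule in 9 of 9 alternatives and Tnfrsf1b in 8 of 9. Not all of these alternatives could differ from the main setting. Aquantile leaves all ratios as they are by construction. The rules for dim probes return the main value for each measured receptor, since its brightest probe was above background in both RNAs. The mean of the probes does so too for a gene with 1 measured probe, such as Tnfrsf4. Tnfrsf1a, Fas, Tnfrsf10b, Ltbr and Tnfrsf12a met it in 0 of 9. Fas and Tnfrsf10b were highest with the scanner software's ratios, at 0.66 and 0.60. Tnfrsf1a, Fas and Tnfrsf10b stayed above 0 in all 9, while Ltbr did so in 7 and Tnfrsf12a in 8.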

How the data were processed

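RNA of organoids with and without RankL was compared on 2 dye-swapped Agilent arrays. The deposited scanner files hold intensity values, the median pixel brightness of each spot and of its local background, not normalized, per the file headers. Agilent Feature Extraction, whose version is 10.5.1.1 per the file headers and 8.5.1.1 per the submitters' processing notes, also wrote log10 ratios (red over green) after its own background subtraction and dye normalization. The deposited series matrix holds the same log10 ratios turned to RankL over untreated (largest difference 5.0e-06, median 0 in both columns).

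Background was corrected with normexp (offset 50, which compresses the ratios of dim probes) and ratios were normalized by loess in limma 3.58.1 under R 4.3.3, with 1639 control spots at weight 0. Spots with an outlier flag were left out (170 on array 1, 164 on array 2) and spots of a probe averaged. A probe was measured if well above background (in at least 0.5 of its spots) in RankL RNA on both arrays or in untreated RNA on both. Signals given per RNA followed loess and Aquantile normalization, and "at least" folds set the brighter RNA against the dim signal or the array's background limit (the lowest signal called well above background), whichever was higher. These folds rest on the mean of the arrays, so a single array can read lower. Where the dim signal was the higher, they equal the mean ratio. Names came from RefSeq accessions of GRCm38.p6 (26918 of 41174 probes). A gene took its brightest measured probe. The steps were tested on simulated arrays.

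The receptors and lists were chosen with earlier results of these data known, and the named genes are all receptors, with the list genes that met the size rule, were dim in 1 RNA, or had a median of at least 0.5 in size over the settings; a few others are named to complete a list, after their values were seen. The gap between probes and the leukocyte sum without Cd14 were examined after the values were seen. Alternatives were the software's ratio, offset 16, median centring, Aquantile, other rules for dim or several probes, and each array alone. For each array alone the size rule became a log2 ratio of at least 1 in size on that array.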

Additional observations from a re-analysis of the deposited data

How the results depend on the processing

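The scanner software's ratios gave 1148 genes higher and 781 lower, against 704 and 322 in the main setting. With the mean of all measured probes in place of the brightest, 1 receptor (Tnfrsf4) in place of 2 was higher, since the second Tnfrsf1b probe read near 0. The other 8 alternatives, the software's ratios and each array alone included, gave 2 receptors higher, and all 9 gave 0 lower. On each array alone, where a log2 ratio of at least 1 on that array sufficed, 731 genes were higher. Aquantile leaves ratios as they are by construction, and the rules for dim probes leave those of the measured receptors as they are. The median over all genes shifted most with median centring, by -0.067. Calls that changed in the lists were those of Tnfrsf11a (highest 1.29), Tnf (1.82 with the software's ratios), Birc2 (highest 1.36, called higher in 3 alternatives), Pdgfrb (highest 2.496, called higher in 3) and Krt18 (lowest -1.29, called lower in 2), beside genes dropped as dim in untreated RNA and Relt. Signals of Fas, Tnfrsf10b, Tnfrsf21, Cd40 and Tnfrsf9 lay near the background limit. So did those of Tnfrsf1b in untreated RNA, of its second probe in both RNAs, and of Tnfrsf18 in RankL RNA. This limits what their ratios can show, and 1 RNA per condition limits all of them. No paired analysis was possible because each condition has 1 RNA.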

Other observations

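The annotated neighbours of the receptors, looked up after the ratios were seen, gave these values. Tnfrsf4 (2.83) lies next to Tnfrsf18, which was lower at -1.13 ± 0.15, and on its other side next to Sdf4, at -0.025 ± 0.21. Tnfrsf1b (1.57) lies between Dhrs3, at 0.46 ± 0.40, and Tnfrsf8, which was not measured. Tnfrsf1a and Ltbr flank Scnn1a, the alpha subunit of the epithelial sodium channel, which was higher at 1.92 ± 0.13, while the receptors on both sides of it were at 0.43 and 0.093.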
